A study of Malus domestica with 9 samples.

Results

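MYB10, also called MYB1, is the MYB transcription factor that switches on anthocyanin synthesis in apple skin. It is followed here through its locus MD09G1278600 (listed as gene:MD09G1278600), which is 1 of the 46558 genes in the deposited table. The locus was chosen by its identifier, as the place of MYB10 in the GDDH13 apple genome, and its rule uses no measured value, although earlier results of these data were known when it was chosen. The study took peel from bagged apples (Malus domestica) and sampled it after 0, 6 or 24 h of light following bag removal, with 3 libraries per time labelled as biological replicates. No cultivar, fruit age or number of fruit per library is given in the labels. All 3 groups had been bagged and no fruit left in its bag was sampled at 6 or 24 h, so the effects of light, of bag removal and of elapsed time or time of day cannot be told apart. Whether the replicates came from separate fruit or trees is not stated, so p-values reflect only how these libraries varied, which may be technical.

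Anthocyanins are the red pigments of apple skin. MYB10 belongs to the R2R3-MYB family and works in a complex with a basic helix-loop-helix partner and a WD40 repeat protein. The complex binds promoters of pigment genes such as those for chalcone synthase, dihydroflavonol reductase, anthocyanidin synthase and the flavonoid glucosyltransferase. In apple the protein is known to be marked for breakdown in darkness by the ubiquitin ligase COP1, and the gene is known to be transcribed more strongly in light. The values below measure its transcript only, and not the protein or the pigment.

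The identity of the locus rests on its identifier, since the deposited table gives no gene names. The prefix of the identifier places it on chromosome 9. In the RefSeq gene table for Malus domestica (assembly GDT2T_hap1, 51804 genes) the entry that carries the names MYB10, MYB1 and MdMYBA is LOC103421948, which is also on chromosome 9. That table lists a second entry under the symbol MYB1 on chromosome 1, so the name MYB1 alone does not fix the gene. Of the identifiers in the deposited table, 0 occur in the RefSeq table, so the link between the locus and the RefSeq entry is by name and chromosome alone. For the same reason the enzymes and partners of MYB10 could not be looked up by name, markers of peel could not be checked, and the counts planned for pathway lists were not made. Coordinates and exons are not given, because the genome build of the files is not stated. A length of 1187 bases for the locus was worked out from the FPKM values, taking lengths as whole numbers. The median for all genes tested was 1533 bases.

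MYB10 was already transcribed in the peel as it came out of the bag. At 0 h it stood at 8.46, 7.52 and 8.33 FPKM (fragments per kilobase of a gene's transcript, scaled by 1 denominator per library) in replicates 1, 2 and 3. These values rest on 182, 170 and 162 reads, as worked out from the FPKM. After 6 h of light it stood at 47.1, 47.9 and 49.6 FPKM, from 980, 996 and 1102 reads. After 24 h it stood at 126.4, 125.4 and 140.6 FPKM, from 2536, 2616 and 2696 reads. The times did not overlap: the highest 0 h library lay far below the lowest 6 h library, and the highest 6 h library far below the lowest 24 h library. As these are bulk samples, more cells with the transcript and more transcript per cell cannot be told apart.

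**Figure D1:**
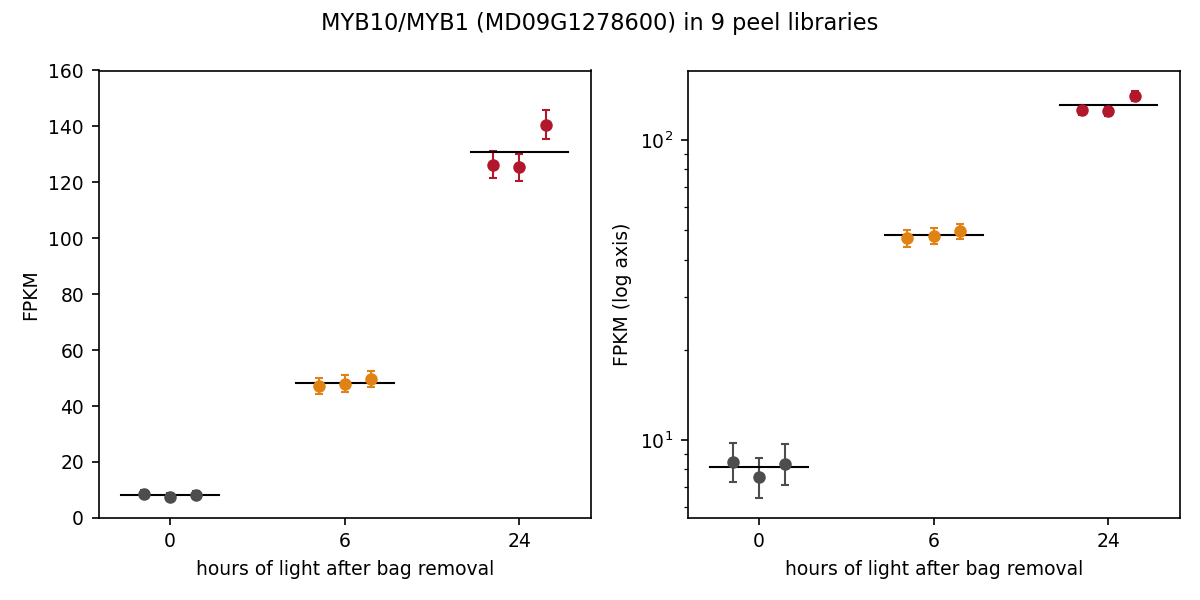
FPKM of MYB10/MYB1 in each of the 9 peel libraries at 0, 6 and 24 h of light, on a linear axis (left) and a log axis (right). Points are libraries with exact Poisson 95% intervals for counting error, black lines are means of 3 libraries, and the times are evenly spaced. The 0 h libraries lie between 7.52 and 8.46 FPKM, the 6 h libraries between 47.1 and 49.6 and the 24 h libraries between 125.4 and 140.6.

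The early change of the regulator is that from 0 h to 6 h. The 0 h mean was 8.10 ± 0.507 FPKM (SD, n = 3) and the 6 h mean 48.2 ± 1.28 FPKM (SD, n = 3), a rise of 5.95-fold. The smallest ratio between any 6 h and any 0 h library was 5.57 and the largest 6.59. On the log2(FPKM + 1) scale, where the added 1 keeps low values finite and shrinks their differences, the difference was 2.44 (SE 0.0792, limma adjusted p = 1.06e-08, higher in 3 of 3 libraries). To be called, a gene needed an adjusted p below 0.05 (Benjamini-Hochberg, 25362 tested genes) together with a log2 difference of 1 or more in size, and by this rule MYB10 was called higher. So were 9.36% of the tested genes, 6.17% were called lower, and 15.5% were called in either direction. On the log2(FPKM + 1) scale 493 of the tested genes had a larger difference and 98.1% a smaller one, while 781 had a larger ratio of mean FPKM without the added 1.

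The level was higher still after a full day. At 24 h it was 130.8 ± 8.53 FPKM (SD, n = 3), 16.1-fold the 0 h mean. The log2 difference from 0 h was 3.86 (SE 0.0792, limma adjusted p = 3.74e-10, higher in 3 of 3 libraries). In this comparison 11.9% of the tested genes were called higher, 7.9% lower and 19.8% in either direction. The balance of calls moved with scaling, with 60.03% of them higher as deposited and 46.3% with each library rescaled to the same summed FPKM. With quantile normalization, which gives all libraries the same distribution of values, 53.0% were higher. Of the tested genes, 194 had a larger log2(FPKM + 1) difference than MYB10 and 99.2% a smaller one, while 386 had a larger ratio of mean FPKM. In absolute terms the mean rose by 122.7 FPKM, and 306 tested genes gained more FPKM than that.

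The comparison of 24 h with 6 h asks whether the rise went on after the first hours. It did: the mean at 24 h was 2.71-fold that at 6 h, and the log2 difference reached 1.42 with an SE of 0.0792 (limma adjusted p = 2.33e-07, higher in 3 of 3 libraries). Between these times 8.66% of the tested genes were called higher, 7.79% lower and 16.5% in either direction. Of the called genes 52.6% were higher as deposited, 42.0% after the same rescaling and 51.4% with quantile normalization. MYB10 ranked lower here than in the comparisons with 0 h, with 1305 tested genes above it by log2(FPKM + 1) difference and 1706 by ratio of mean FPKM.

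**Figure D2:**
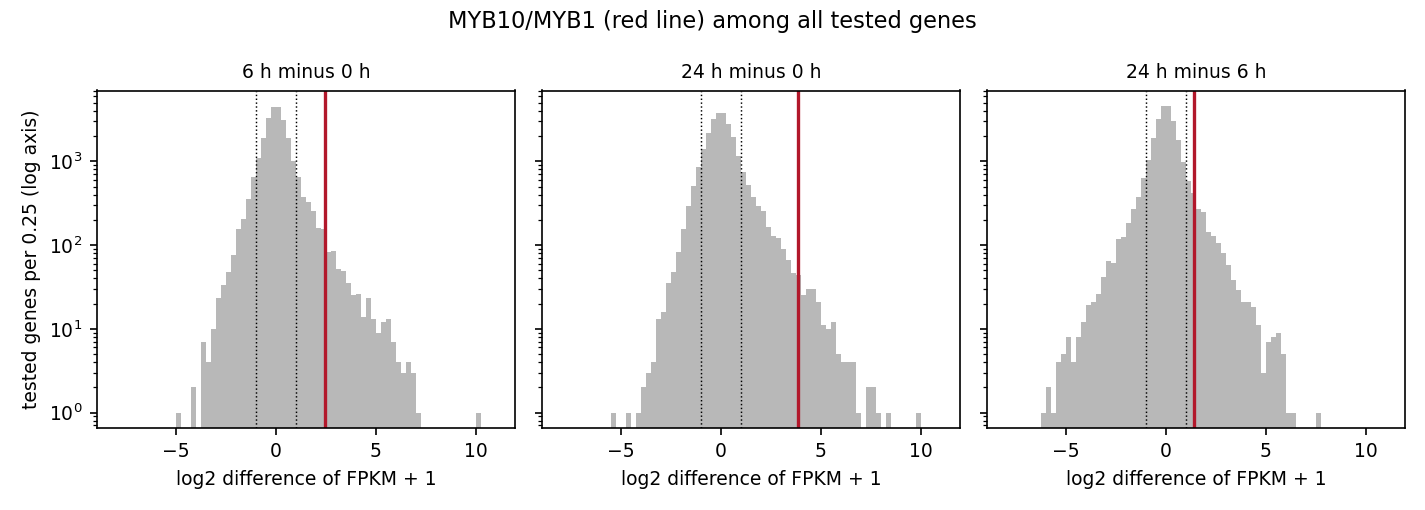
Distribution of log2 differences of FPKM + 1 over the 25362 tested genes in each comparison, as genes per bin of 0.25 on a log axis. The red line is MYB10/MYB1, at 2.44, 3.86 and 1.42, and the dotted lines mark the size limit of 1 for a call. The line lies in the right-hand tail of each panel, nearest to the bulk of genes in the comparison of 24 h with 6 h.

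The rise was steeper early than late. By 6 h it had covered 32.7% of the 24 h gain when counted in FPKM, and 63.2% when counted in log2 units. The mean gain was 6.68 FPKM per hour over the first 6 h and 4.59 FPKM per hour over the next 18 h. On the log2(FPKM + 1) scale it was 0.41 per hour and then 0.079 per hour. With 3 sampled times these are averages over each interval, and the course within it was not measured.

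Any change over the 3 times was tested in 2 ways. The moderated F-test of limma gave an adjusted p of 7.41e-10, and 72.7% of the tested genes also passed this test at an adjusted p under 0.05. An exact permutation test of the F statistic of MYB10 alone, over all ways of placing the 9 libraries in 3 groups of 3, gave p = 0.00357 (one-sided in F), the smallest p this design allows. With 3 libraries against 3 an exact 2-sided p cannot fall under 0.1, so no such test was made for single pairs.

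A stepwise rise that passed the limits for a call at each step was seen in few genes. The shares called higher in the separate steps were 9.36% from 0 h to 6 h and 8.66% from 6 h to 24 h. Smaller steady rises are not counted. Genes called higher in all 3 comparisons, as MYB10 was, made up 0.863% of the tested genes, or 219 genes. In order of time, the median FPKM over these genes was 3.88, 15.6 and 60.9, so MYB10 lay above the median of this group at each time. In 64 of them the 24 h mean exceeded that of MYB10. Their median log2 difference was 1.62 for the first 6 h and 1.76 for the later step, while MYB10 had 2.44 and 1.42. It thus stood above the median in its early step and below it in its late step.

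The place of MYB10 among the transcripts of each library moved in the same order. At 0 h it ranked 12451, 13444 and 12595 from the top in the 3 libraries by FPKM. At 6 h it ranked 2585, 2549 and 2438, and at 24 h 847, 841 and 989. Put as shares of the genes above 0 in at least 1 library, 63.8% to 66.5% had a lower FPKM at 0 h, 93.04% to 93.4% at 6 h and 97.3% to 97.7% at 24 h. Ranks depend on no scaling between libraries, and those of the 3 times did not overlap.

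The libraries held 15.3 to 19.5 M (mega) reads in genes, and 19.2 to 22.6 reads made 1 FPKM of MYB10. At 0 h the coefficient of variation between libraries was 6.25%, against 7.65% that counting error alone would give at these read numbers. At 6 h it was 2.66% against 3.13%. At 24 h it was 6.52% against 1.96%, above the counting error at this time alone in FPKM as deposited. Per M of summed FPKM the coefficients were 8.85%, 2.26% and 5.74% in order of time, so 0 h then lay above it too. Per M reads in genes they were 7.59%, 2.62% and 3.16%. Among tested genes of a like level (within 0.5 log2 units of its group mean), MYB10 lay below the median SD at each time. Its SD was 0.082 log2 units at 0 h, 0.037 at 6 h and 0.092 at 24 h. The medians of such genes were 0.11, 0.069 and 0.22. The last of these includes the third 24 h library, which stood apart in general. Shares of 33.2%, 20.3% and 17.0% of these genes had a lower SD.

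The spread at 24 h came with the third library of that time, which stood apart from the others in general. Its residual SD over all tested genes was 0.328 log2 units, against 0.123 to 0.195 in the other 8 libraries. It had the highest FPKM of MYB10 of all libraries, at 140.6, with an exact Poisson 95% interval of 135.4 to 146.04 FPKM for counting error. The other 24 h libraries had intervals of 121.5 to 131.4 and 120.6 to 130.3 FPKM, which do not reach it at the read numbers worked out. These intervals carry the deposited denominator of each library, so the gap between them is one on the FPKM scale and at these read numbers. With smaller counts the intervals would be wider and could meet. Of the 24 h libraries, the third had the most reads in genes, 19.5 M, but the smallest denominator, 16.2 M. Its summed FPKM was 870488, against 704706 and 704052 in replicates 1 and 2. The order turned around on the scales that do not use the denominator. Per M of summed FPKM, MYB10 made up 179.3, 178.1 and 161.6 at 24 h in replicates 1, 2 and 3, and per M reads in genes it had 146.9, 145.1 and 138.3 reads, so that the third library was then the lowest of its time. It also had the lowest rank of the 24 h libraries.

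**Figure D3:**
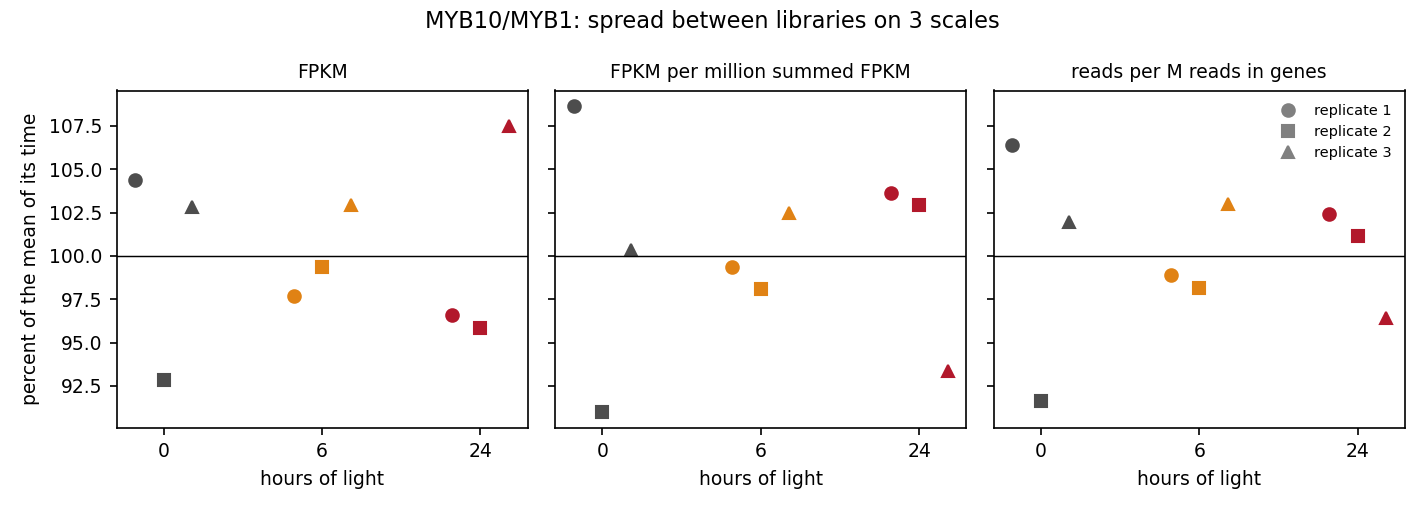
Level of MYB10/MYB1 in each library as a percent of the mean of its time, on 3 scales: FPKM as deposited, FPKM per M (mega) of summed FPKM, and reads per M reads in genes. Colours are the times (0 h grey, 6 h orange, 24 h red) and symbols the replicates. The third 24 h library (red triangle) is the highest of its time in FPKM and the lowest on both other scales, while the 0 h libraries keep their order and the third 6 h library stays the highest of its time.

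The rise was present on all 3 scales, but each fold was largest in FPKM. In FPKM it was 5.95-fold at 6 h and 16.1-fold at 24 h against 0 h, and 2.71-fold at 24 h against 6 h. Per M of summed FPKM it was 5.88-fold at 6 h and 14.1-fold at 24 h against 0 h, and 2.40-fold at 24 h against 6 h. Per M reads in genes it was 5.68-fold, 13.8-fold and 2.44-fold. Without the third 24 h library the 24 h mean was 125.9 FPKM, 15.5-fold the 0 h mean and 2.61-fold the 6 h mean. The times did not overlap on any of the 3 scales, with the highest 6 h library at 73.8 and the lowest 24 h library at 161.6 per M of summed FPKM.

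The genes with the most similar time course were looked for by Pearson's r of log2(FPKM + 1) over the 9 libraries. The libraries share 3 times and thus are not independent points, so r is a description and carries no test. Of the other 25361 tested genes, 105 had an r of at least 0.99, and 18 had an r of -0.99 or lower. These counts were unstable: without the third replicate of each time they were 279 and 163, and by Spearman's rho 16 and 8. Genes were named only if they were called between 24 h and 0 h, did not overlap between these times and had a mean of 10 FPKM or more at some time, which 3536 genes did. The files and the reference table give no name or function for them.

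The highest r was that of MD08G1216100 (r = 0.999). Its means were 11.7 ± 0.386, 45.6 ± 1.93 and 106.3 ± 9.10 FPKM (SD, n = 3 per time) in order of time. It was called higher in all 3 comparisons, with log2 differences of 1.87, 3.07 and 1.20 (limma adjusted p = 6.54e-08, 1.36e-09 and 1.03e-06), each smaller than in MYB10. Its FPKM was likewise highest in the third 24 h library, at 116.8 against 101.8 and 100.3.

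The next was MD01G1163400 (r = 0.999), which came before MD08G1216100 by Spearman's rho (0.983 against 0.933) and, by a difference in the fourth decimal, by r without the third replicates. It had means of 16.0 ± 0.814, 38.8 ± 0.652 and 61.1 ± 2.89 FPKM (SD, n = 3 per time). Its log2 differences were 1.23, 1.87 and 0.64, and the last was under the size limit for a call (limma adjusted p = 4.57e-05). At 0 h it lay above MYB10 and at both light times below it, per length of transcript.

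The lowest r was that of MD14G1085300 (r = -0.997), with means of 201.8 ± 13.0, 20.5 ± 0.835 and 6.56 ± 0.0924 FPKM (SD, n = 3 per time) in order of time. Its log2 differences were -3.24, -4.74 and -1.51, all called (limma adjusted p = 2.16e-09, 1.85e-10 and 1.09e-07). MD10G1055700 (r = -0.996) had means of 24.5 ± 2.03, 6.63 ± 0.725 and 2.89 ± 0.342 FPKM (SD, n = 3 per time), with log2 differences of -1.74 and -2.71 against 0 h (limma adjusted p = 8.31e-07 and 2.2e-08). Its step from 6 h to 24 h, -0.97 log2 units, stayed under the size limit (limma adjusted p = 4.65e-05).

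**Figure D4:**
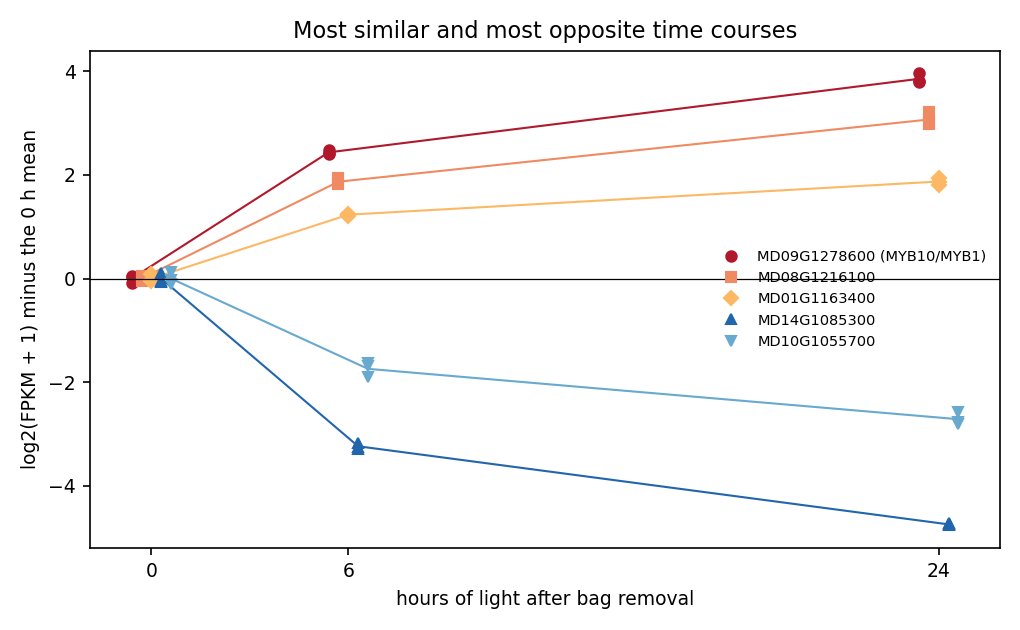
Time courses of MYB10/MYB1, of the 2 genes with the highest and of the 2 genes with the lowest Pearson's r with it, as log2(FPKM + 1) minus the 0 h mean of each gene against hours of light. Points are libraries, shifted slightly sideways, and lines join the means of 3 libraries. MYB10/MYB1 rises by 2.44 and 3.86, MD08G1216100 by 1.87 and 3.07, and the steepest fall, in MD14G1085300, reaches -4.74.

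The genes listed next to MYB10 moved in both directions. The 10 identifiers just below and the 10 just above it on chromosome 9 were taken, of which 12 were expressed enough to be tested and 4 were listed at 0 in every library. At 6 h against 0 h, 0 of the 12 were called higher and 2 lower by limma, beside 9.36% and 6.17% of all tested genes, with log2 differences from -2.47 to 0.89. At 24 h against 0 h, 1 was called higher and 4 lower, beside 11.9% and 7.9%, with log2 differences from -2.00 to 2.54. Between 6 h and 24 h, 3 were called higher and 2 lower, beside 8.66% and 7.79%. At an unadjusted p under 0.05 limma had 4, 5 and 5 of the 12 higher in these 3 comparisons. The share of all tested genes under that rule was not worked out. Limma-voom on the read counts called 0, 1 and 3 of them higher, beside 2899, 3623 and 2657 of the 25362 tested genes. No test was made on these counts. The median log2 differences of the 12 were -0.33, -0.13 and 0.03 in the 3 comparisons, beside 0.011, 0.0039 and -0.0054 for all tested genes. How far apart these genes lie is not given, and reads of overlapping or near-identical genes may have been split between them in ways the files do not show.

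The calls for MYB10 held under each setting tried. Over 19 alternatives per comparison, the log2 difference ran from 2.02 to 2.57 for the first 6 h, from 3.37 to 4.01 for the full day, and from 1.25 to 1.45 for the step from 6 h to 24 h. The largest limma adjusted p over these were 3.83e-07, 1.68e-07 and 1.36e-05. The lowest values against 0 h came with a pseudocount of 5, which shrinks differences of low levels by construction, and the highest with limma-voom on the read counts.

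**Figure D5:**
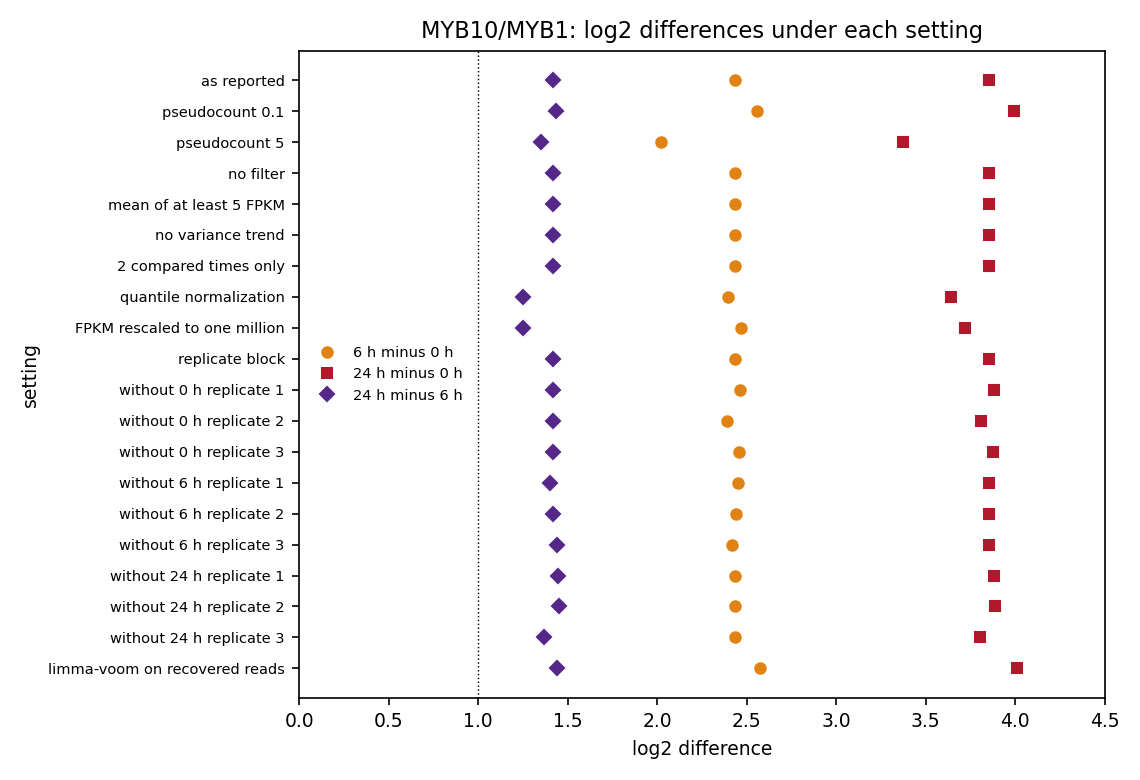
Log2 differences of MYB10/MYB1 in the 3 comparisons as reported and under each alternative setting. The dotted line marks the size limit of 1 for a call. All points lie to the right of it, the lowest at 1.25.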

How the data were processed

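The deposited values are FPKM per gene and library, computed by the authors, per the file headers. HISAT2 and Cufflinks are named in the submitters' processing notes. Not given in the sources used here are versions, genome build, annotation, filters and strand setting. Reads behind the FPKM were worked out from them: the values of a gene are whole multiples of 1 step, set by a whole gene length and 1 denominator per library. This rebuilt the FPKM of all 37142 genes above 0 to within a relative difference of 6.91e-08. At 24 h the denominators were 16.9, 17.6 and 16.2 M, below the 17.3, 18.03 and 19.5 M reads in genes. They cannot be read as totals of mapped reads, and how they were set is not stated in the sources used here. At 0 h and 6 h each denominator lay above the reads in genes. A unit may be a read or a read pair. The reads worked out for MYB10 are even in every library, so smaller counts with a length that is not whole would fit as well. Poisson intervals cover counting error only and would then be wider, so those of the 24 h libraries could meet.

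Limma 3.58.1 (R 4.3.3) was applied to log2(FPKM + 1), with a variance trend, for the 25362 genes whose mean was 1 FPKM or more. One model with a mean per time was fitted to all 9 libraries (6 residual degrees of freedom), and p-values were adjusted by Benjamini-Hochberg over all tested genes. The recovery of reads and the limma fit were each tested on simulated data. The simulated reads were built on whole gene lengths, so they could not check that assumption. Other genes were named by a rule: the 2 highest and 2 lowest Pearson's r with MYB10 among the eligible genes. The gene and these rules were chosen with earlier results of these data known. No sequence is shown.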

Additional observations from a re-analysis of the deposited data

Results flagged for a closer look

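The change of MYB10 (MD09G1278600) against 0 h was larger at 24 h than at 6 h. The test of this difference is the direct comparison of both light times, where MYB10 was higher at 24 h by 1.42 on the log2 scale (SE 0.0792, limma adjusted p = 2.33e-07, higher in 3 of 3 libraries). Both changes use the same 0 h libraries. No test for outlying libraries was made on groups of 3.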

How the results depend on the processing

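All 3 comparisons and the F-test kept direction and call for MYB10 in each alternative run. The exact permutation p was 0.00357 in each of the 12 alternatives where that test was run. This is the smallest the design allows, so it does not measure how far the result moved. Leaving out 1 library at a time gave log2 differences of 2.39 to 2.46, 3.80 to 3.88 and 1.37 to 1.45. Rescaling each library to the same summed FPKM shifted the median over all tested genes by -0.17 at 24 h against 0 h and by -0.15 at 24 h against 6 h, and MYB10 then lay 3.88 and 1.41 log2 units above that median. Among called genes, the part that was higher went from 60.03% to 46.3% and from 52.6% to 42.0%. With quantile normalization it was 53.0% and 51.4%. Same-numbered replicates did not deviate together (r from -0.063 to 0.076 across genes, a check of the numbers only). With the replicate number as a block, the log2 differences of MYB10 were the same 2.44, 3.86 and 1.42. The balanced design fixes this in advance, so only the p-values could move. Limma adjusted p for MYB10 in the blocked fit were 3.58e-07, 3.79e-08 and 3.17e-06. In that fit 3941, 5019 and 4175 genes were called in place of 3939, 5014 and 4173. With a pseudocount of 5, 2046, 2697 and 2398 genes were called, 1366, 1978 and 1397 of them higher. By Spearman's rho the likeness was 0.933 for MD08G1216100, 0.983 for MD01G1163400, -0.933 for MD14G1085300 and -0.917 for MD10G1055700, and 16 genes reached 0.99 in place of 105. Without the third replicates 279 did. The fit on read counts was chosen after seeing the data.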
